A study of Drosophila melanogaster with 2 samples.

Results

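The set named weaker Sage regions found in both replicates held 1663 regions. They are among the 29975 that the submitters' pooled list places on the nuclear chromosomes of Drosophila melanogaster other than Y (6 arms, genome build dm6). The 1663 were selected on the deposited signal, and binding at them was not tested. A region became a member when it was absent from the list that passed the submitters' irreproducible discovery rate (IDR) threshold, yet shared at least 1 bp with a top-ranked region of replicate 3 and with one of replicate 4. Top-ranked regions are the strongest of a replicate's list, down to a rank of 2 times the length of the IDR list. This rank is called the rank limit. The other regions on the arms were 3292 IDR peaks, 5215 weaker regions that met such a replicate region in 1 replicate, and 19805 that met one in neither.

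The data came from chromatin immunoprecipitation with sequencing (ChIP-seq). There were 2 samples in 1 group, biological replicates 3 and 4. Both were whole wandering larvae of the third instar, male and female pooled, of unknown age, from a transgenic line that stably expresses Sage fused at its C-terminus to GFP, and an antibody against GFP was used for the precipitation. There was no second genotype, stage or treatment. The sources used here do not say which promoter drives the fusion protein, which cells carry it or whether the replicates were separate collections. A region from a whole larva cannot be assigned to a tissue. The control library was not analysed here, read depth is unknown, and the signal of a region is the authors' own value on a scale not given in the sources used here. Signals and ranks were therefore read only within a list.

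Sage belongs to the bHLH transcription factors, named for their basic helix-loop-helix domain, and is known for its role in the larval salivary gland, where it works beside the forkhead factor Fkh. Proteins of this family bind DNA as dimers at short sites called E-boxes, CANNTG, and the Drosophila protein Daughterless is their common partner. Wandering larvae are close to pupariation. Their salivary glands hold glue proteins, and pulses of the steroid ecdysone change the expression of many genes. Regions of lower ChIP signal can be hard to tell from background, and the selection on both replicates used rank alone.

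The members were split by whether the replicate regions behind them also overlapped an IDR peak. In 1036 members (62.3%, 95% exact Clopper-Pearson interval 59.9 to 64.6) a top-ranked region of each replicate met the member and no IDR peak. These are called separate members. Their overlap with both replicates follows from the rule, and they share 820 distinct regions in replicate 3 and 829 in replicate 4. In the other 627 (37.7%, 35.4 to 40.1) at least 1 replicate held no such region apart from ones that also overlapped an IDR peak, so the replicate support came with a stronger neighbour. These are called adjoining members. The split was made after the distances to IDR peaks had been seen, and results are given for both kinds.

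The sequences of 7 members are shown first, to give the letters behind the motif counts below. Each is the 101 bp window centred on the pooled summit, written 5′ to 3′ on the plus strand of the RefSeq Release 6 genome, the assembly behind dm6. The first 3, at a gene for a Rap1 exchange factor, a BTB factor gene and a transporter gene, are separate members among the 20 of highest pooled signal, and their windows touch no annotated exon. They were searched for E-boxes and hold none, so no letter is in capitals. Another separate member of the 20, at pooled rank 3314, was searched in the same way and is not printed. Its window holds the E-boxes CACCTG and CATTTG. The 3 printed windows therefore do not show how often E-boxes occur among the 20.

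PDZ-GEF, chr2L:6323571-6323671: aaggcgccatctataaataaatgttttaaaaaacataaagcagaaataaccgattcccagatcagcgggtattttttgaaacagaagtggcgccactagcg

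bab1, chr3L:1089429-1089529: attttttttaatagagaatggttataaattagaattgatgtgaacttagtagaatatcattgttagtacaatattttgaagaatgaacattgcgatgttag

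MFS10, chrX:13130548-13130648: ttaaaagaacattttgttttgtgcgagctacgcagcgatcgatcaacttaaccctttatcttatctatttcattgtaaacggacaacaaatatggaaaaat

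The next 4 windows are from members of high pooled signal, outside exons, and each window holds 1 of 4 motifs discussed below. Only that motif is in capitals, and other motifs counted below can stand in lower case, as CATATG does in the anne window. Capitals mark the DRE (TATCGATA, the element of core promoters bound by DREF) in the window upstream of CycY, a cyclin gene. In the window upstream of emc they mark a GAGAGAGA repeat on the minus strand, read here as TCTCTCTC, a sequence type bound by the GAGA factor Trl. In the anne window, inside that gene and upstream of a start site of it, they mark the E-box CAGCTG. They mark the E-box CACGTG in an intron of ush, where the nearest start site is that of cbt. The first 3 are separate members and the cbt window is from an adjoining one. That member's region ends at 481261, short of its window, and the marked CACGTG lies beyond the region's end.

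CycY, chr2L:11814016-11814116: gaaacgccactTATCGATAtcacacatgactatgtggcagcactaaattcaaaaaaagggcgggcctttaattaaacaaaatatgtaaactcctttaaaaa

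emc, chr3L:749278-749378: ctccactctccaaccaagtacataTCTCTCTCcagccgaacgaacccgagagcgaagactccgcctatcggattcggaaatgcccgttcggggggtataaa

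anne, chr4:136009-136109: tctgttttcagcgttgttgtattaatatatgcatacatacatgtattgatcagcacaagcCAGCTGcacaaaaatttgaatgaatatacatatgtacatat

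cbt, chr2L:481197-481297: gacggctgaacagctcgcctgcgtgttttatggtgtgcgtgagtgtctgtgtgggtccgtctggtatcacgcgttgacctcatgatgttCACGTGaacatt

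The values that chose the members describe where they sit in the lists. Pooled signal ran between 24.0 and 95.7 with a median of 70.4, and pooled rank between 3313 and 29785 with a median of 5762. Separate members had a median pooled signal of 81.6 and adjoining members one of 45.9, against 135 for IDR peaks. The order was turned round in the ranks of the strongest replicate regions that overlapped them. The median rank of separate members was 4481.5 in replicate 3 and 4969 in replicate 4, whereas that of adjoining members was 1844 in replicate 3 and 2007 in replicate 4, close to the 1680.5 and 1745 of IDR peaks. A rank within the length of the IDR list, in both replicates, was held by 371 adjoining and 24 separate members. Of the IDR peaks, 2894 (87.9%) met a top-ranked region in both replicates.

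Just under the signal of the IDR list lay the member at rux, which encodes an inhibitor of cyclin-dependent kinase activity, with a pooled signal of 95.651. Just above it was the weakest IDR peak, nearest to CG3149, at 95.665. The last members inside the replicate limit were 2 overlapping regions at E2f1, with rank 6621 in replicate 3, and 1 nearest to scyl, with rank 6620. Just outside it were a region nearest to CG42542, with rank 6625 in replicate 4, and regions nearest to CG32369, with rank 6628 in replicate 3.

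**Figure D1:**
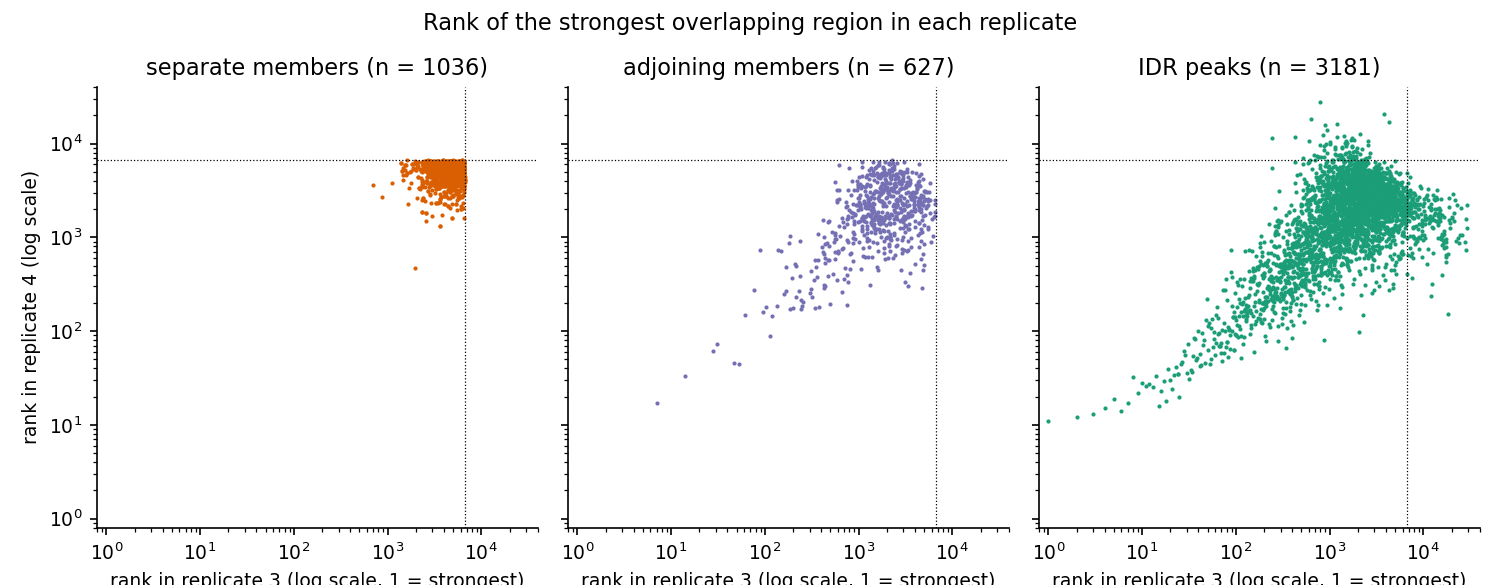
Each point is a region of the pooled list, plotted by the rank of the strongest overlapping region in replicate 3 (x) and replicate 4 (y), both on log scales with 1 the strongest. Dotted lines mark the rank limit, inside which members lie by the rule. Separate members crowd near the limit, while adjoining members reach ranks 7 and 17, among the ranks of the 3181 IDR peaks that met a region in both replicates.

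Adjoining members lay beside IDR peaks at a nearly fixed distance. The median distance of their summits to the nearest IDR summit was 205 bp (range 199 to 572 bp), and 542 of 627 (86.4%) were 180 to 240 bp away. The smallest distance between any pair of neighbouring summits on the arms was 199 bp in the pooled list and in each replicate list, and 98.2% of the pooled regions were exactly 390 bp wide. Most adjoining members thus stood at or near the closest spacing found in the deposited lists. They were nearest to 614 different IDR peaks, 18.7% of all IDR peaks, whose median pooled signal was 133.

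The split between the kinds rests on whether replicate regions overlapped IDR peaks, so the distances of replicate summits to IDR summits follow largely from it and are a description. At adjoining members the strongest overlapping replicate region had its summit a median of 204 bp from the member's own summit in replicate 3 and likewise 204 bp in replicate 4. The same replicate summits lay a median of 21 bp (replicate 3) and 11 bp (replicate 4) from an IDR summit, and 531 (84.7%) and 552 (88.0%) of them were within 100 bp of one. At separate members the replicate summit was a median of 47 bp from the member's summit in replicate 3 and 39 bp in replicate 4, and 0 of 1036 were within 100 bp of an IDR summit in either replicate. By the same split no adjoining member could be the strongest pooled region at its replicate region in both replicates. Of the separate members, 797 were (76.9%, 74.2 to 79.5). These 797 are called leading members. Separate members were a median of 5151.5 bp from an IDR summit. Of these members, 105 (10.1%) lay within 1 kb of one and 337 (32.5%) more than 10 kb from every one.

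**Figure D2:**
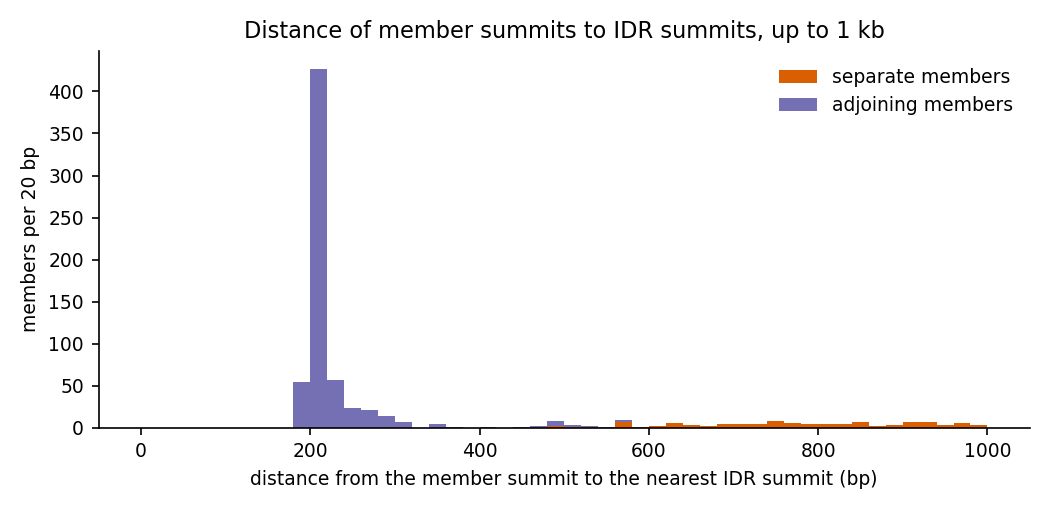
Bars count members per 20 bp of distance between their summit and the nearest IDR summit, for distances up to 1 kb. A single spike of 427 adjoining members stands at 200 to 220 bp, no member is closer than 199 bp, and separate members are spread thinly from 489 bp.

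The 10 members with the best mean replicate rank were all adjoining, 200 to 260 bp from an IDR summit. The first lay in an intron of ush, a Friend-of-GATA cofactor, and nearest to cbt, a zinc-finger gene (2L, 480941 to 481261). Its pooled signal was 90.4. The strongest replicate regions that overlapped it had signals of 465 in replicate 3 and 661 in replicate 4, at ranks 7 and 17. An IDR peak met regions of the same ranks, 7 and 17, so these replicate values are shared with an IDR peak. Ranks given for the other members of the 10 are likewise those of overlapping replicate regions. The others included an intron of CG32772 (ranks 14 and 33), an intron of Trl, which encodes the GAGA factor (ranks 28 and 61), and an intron of Eip78C, an ecdysone-induced nuclear receptor gene, nearest to CG43218 (ranks 47 and 46). Pooled signals of these 10 were 40.7 to 94.995, under those of every IDR peak.

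Further members of the 10 lay at the promoters of Fkbp14, a peptidyl-prolyl isomerase gene (ranks 53 and 45), Mtl, a Rac-family GTPase gene (ranks 31 and 72), and CG14968 (ranks 120 and 143). The last 3 were in introns of Ptp10D, a receptor tyrosine phosphatase gene (ranks 113 and 88), of HmgD and nearest to HmgZ, both high-mobility-group genes (ranks 62 and 148), and of wit, a BMP receptor gene (ranks 95 and 161).

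Among separate members the best mean replicate rank was at the HmgZ promoter (pooled signal 82.9, rank 1955 in replicate 3 and 466 in replicate 4), 1148 bp from an IDR summit and with replicate summits 488 bp apart. It was followed by row, a zinc-finger gene (ranks 880 and 2722), and anne on chromosome 4 (ranks 1665 and 2252), whose window is printed above and which lay 66552 bp from the nearest IDR summit. The Hsc70-3 promoter, at the gene for the endoplasmic reticulum chaperone BiP, was also among the 10 (ranks 2041 and 2644, signals 57.4 and 66.5). Other entries were at comm2 (ranks 2572 and 1493), at CG11089 (ranks 695 and 3644), and in pairs of overlapping pooled regions at 1 replicate region, as at lola, a BTB transcription factor gene, and CG4238. Such pairs share their replicate values.

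Of the 20 members with the highest pooled signal, 95.1 to 95.7, all were separate. By annotation 13 lay in promoters, 3 in introns, 2 in 3′ UTRs and 2 between genes. A promoter is here the 500 bp on either side of any annotated transcription start site (TSS). PDZ-GEF and Rap1 were both among them, an exchange factor and the small GTPase it acts on. The PDZ-GEF region had signals of 37.9 in replicate 3 and 60.6 in replicate 4, and the Rap1 region 58.0 in replicate 3 and 42.1 in replicate 4. One lay in an intron of CrebA (3L, 15538828 to 15539217), the bZIP regulator of secretory pathway genes in the salivary gland, 3628 bp from its nearest TSS and 3758 bp from the nearest IDR summit, with signals of 42.5 in replicate 3 and 48.1 in replicate 4.

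A further one lay between genes, 1625 bp upstream of srp, the GATA factor of fat body and blood cells (signals 46.9 in replicate 3 and 48.1 in replicate 4). Promoter regions were found at Tep4, a thioester-containing protein gene of immunity (42.3 and 64.8), at Ama, which encodes a secreted immunoglobulin-domain protein (60.5 and 42.3), at ATPsynbeta on chromosome 4, a subunit of the mitochondrial ATP synthase (48.9 and 54.6), and at rux (42.9 and 50.9). Values in these pairs are replicate 3 and then replicate 4. Replicate ranks over the 20 ran between 1823 and 6253 in replicate 3 and between 2566 and 6399 in replicate 4.

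The remaining regions of the 20 were at Ntf-2r, CG13310, bab1, CG46385, MFS10, CG12744, MFS14, CheB42c, aus, ssp6, CG7560 and CG8679. The bab1 region, in an intron of a BTB transcription factor gene, lay 11610 bp from a TSS, and its window held 24% G and C. Between replicates the summits of MFS14 were 1 bp apart and those of ssp6 0 bp apart, whereas those of aus were 169 bp apart.

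Replicate summits lay further apart at members than at IDR peaks, and this distance was not part of the rule. The median distance between the replicate summits was 74 bp at members (92 bp at separate and 48 bp at adjoining members), against 34 bp at IDR peaks and 74 bp over all pooled regions. At adjoining members most replicate summits lay within 100 bp of an IDR summit (84.7% in replicate 3 and 88.0% in replicate 4). Values over members of both kinds therefore include gaps measured at IDR peaks. Among weaker regions whose pooled rank was inside the rank limit the median distance was 76 bp at members of both kinds, against 53 bp at the others. Replicate summits within 100 bp of each other were found at 60.7% of members (58.3 to 63.0), against 82.1% of IDR peaks (80.8 to 83.5). For separate members the share was 53.8% (50.7 to 56.8), against 54.5% (52.9 to 56.0) of weaker regions met in 1 replicate and 52.0% (50.9 to 53.1) of those met in neither, each over regions with an overlapping region in both replicates. Those 3 intervals overlapped. The intervals cover counting over regions only, and neighbouring regions are not independent. With 1 group of 2 samples, no test between conditions was possible, so the spread between replicates is given as the value at each replicate's summits.

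Shares of promoters, introns and intergenic sequence at members were near those of IDR peaks. The share of 3′ UTRs was higher than at IDR peaks and lower than over all pooled regions. Promoters held 44.3% of member summits (45.2% by replicate 3 and 44.9% by replicate 4 summits), against 47.3% of IDR peaks, 35.0% of weaker regions met in 1 replicate, 16.9% of those met in neither and 24.9% of all pooled regions. Introns held 38.1% of members and 37.2% of IDR peaks, and intergenic sequence 12.6% and 12.8%. Separate and adjoining members differed little, with 43.7% (40.7 to 46.8 for the separate) and 45.1% in promoters. The interval of the members' promoter share (41.9 to 46.7) overlapped that of IDR peaks (45.6 to 49.0). The 3′ UTRs held 2.22% of members (1.57 to 3.05) and 2.51% of separate ones (1.65 to 3.66), against 0.972% of IDR peaks (0.666 to 1.37), without overlap of the intervals. They held 5.43% of weaker regions met in 1 replicate, 7.85% of those met in neither and 6.36% of all pooled regions.

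Members were also set beside weaker regions of similar pooled rank. Of the 3309 weaker regions inside the rank limit of the pooled list, 922 were members (27.9%). Promoters held 42.8% of these members, against 36.6% of the other 2387. Their 3′ UTRs held 2.17%, against 4.36%. Signals within this rank range still differed, with a median of 84.6 for the members and 73.8 for the others, and the part of signal in the difference was not tested.

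Coding sequence, the protein-coding part of exons outside promoters, held 1 of 1663 member summits (0.0601%), against 1 IDR peak and 1.41% of all pooled regions. That 1 member lay in Nhe1, a sodium-proton exchanger gene (2L, 105058 to 105447, signals 33.5 in replicate 3 and 45.6 in replicate 4). It is named because of its value. By replicate summits the count was 4 in replicate 3 and 2 in replicate 4. With a promoter of 200 bp in place of 500 bp the members' share was 0.842%.

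**Figure D3:**
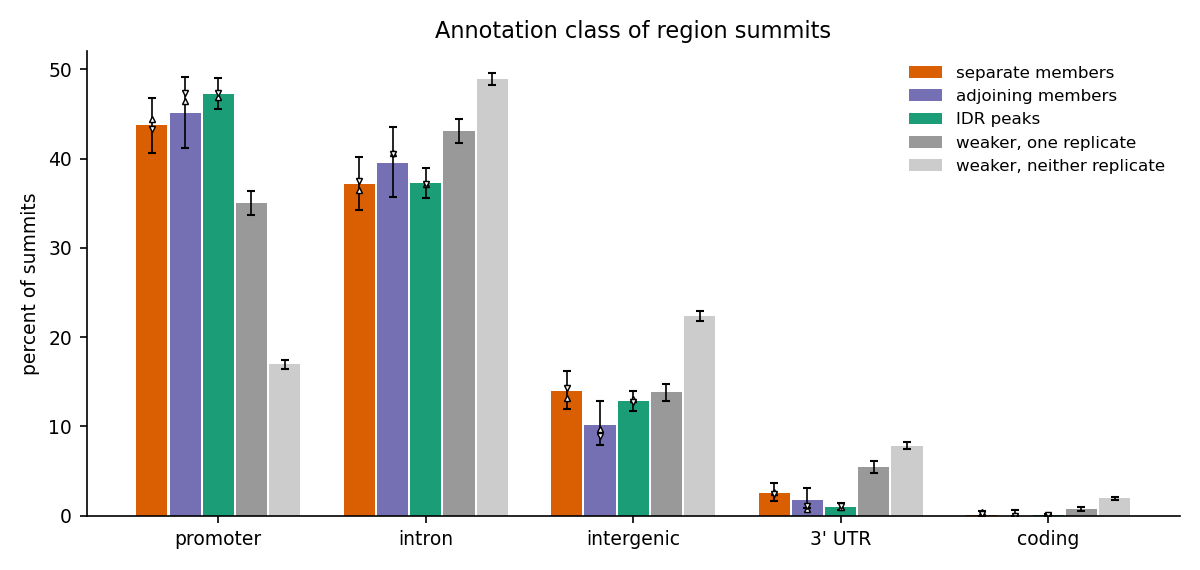
Bars give the percent of summits in 5 annotation classes for separate and adjoining members, IDR peaks and the weaker regions met in 1 or neither replicate. Error bars are 95% exact intervals over regions, and white triangles are the values at replicate 3 (up) and replicate 4 (down) summits. Promoter shares of members stand at 43.7% and 45.1%, close to the 47.3% of IDR peaks.

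Members near a start site lay upstream less often than IDR peaks did. Within 500 bp of a protein-coding TSS, 457 of 671 member summits were upstream (68.1%, 64.4 to 71.6), against 1175 of 1440 IDR summits (81.6%, 79.5 to 83.6). The share was 68.8% for separate and 66.9% for adjoining members. It was 72.1% for weaker regions met in 1 replicate and 63.9% for those met in neither. Taken at the replicate 3 summits the share was 75.4% of members (72.0 to 78.6), against 81.1% of IDR peaks (78.9 to 83.1). At the replicate 4 summits it was 73.9% of members (70.4 to 77.2), against 81.4% of IDR peaks (79.3 to 83.4). The size of the gap thus moved with the choice of summit. Where both replicate summits lay within 100 bp of the pooled one, the members' share was 76.4% (69.5 to 82.4), an interval that overlapped that of IDR peaks at pooled summits, and it was 72.0% for the leading members.

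**Figure D4:**
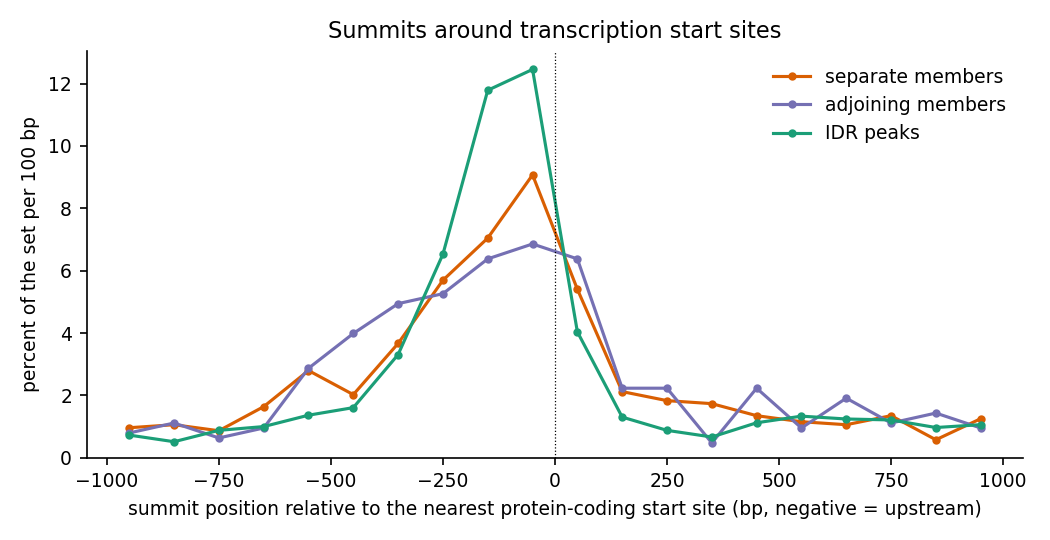
Lines give the percent of each set per 100 bp of position relative to the nearest protein-coding start site, upstream on the left. The 100 bp upstream of the site hold 9.07% of separate and 6.86% of adjoining members, against 12.5% of IDR peaks, and the first 100 bp downstream hold 5.41% and 6.38%, against 4.04%.

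Over the chromosome arms, members numbered 314 on 2L, 299 on 2R, 392 on 3L, 377 on 3R, 260 on X and 21 on chromosome 4. Per megabase this was 11.0 on X to 15.6 on chromosome 4, with 12.4 over all arms. Chromosome 4 is small and largely heterochromatic. It carried 371 weaker regions met in neither replicate per megabase, against 148 over all arms. Members made up 3.20% of its pooled regions, against 5.26% to 6.17% on the other arms.

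Some genes held many members and are named for that count. Overlapping pooled regions, as at E2f1, count separately here even where they share a replicate region. Counting summits in the gene or within 1 kb of it, sbb, a zinc-finger gene on 2R, held 9 members, of which 5 were separate, beside 16 IDR summits over 79.1 kb. CHES-1-like, a forkhead gene, held 8 members (6 separate) beside 6 IDR summits in 27.0 kb, where the mean density of members would give 0.361. The stress-response bZIP gene cnc held 8 members (6 separate) with 3 IDR summits. Then followed E2f1 with 7 (5 separate) and mam, a Notch coactivator gene, with 7 (2 separate), each beside 7 IDR summits. The epithelial polarity gene sdt also had 7 (6 separate), beside 2 IDR summits. Of the 8 genes with 6 members, mtd had 6 separate ones and spen 0. The others were CG46467 and Glut4EF, which overlap and share theirs, Raf, Tet, shn and tai.

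A gene was counted as met when at least 1 of its TSSs had a member summit within 1 kb. Of 13945 protein-coding genes on the arms 917 were met (6.58%), and 515 of these (56.2%) also had an IDR summit within 1 kb. Over all protein-coding genes, 2010 (14.4%) had an IDR summit. Separate members met 526 genes (3.77%), of which 132 (25.1%) also had an IDR summit and 394 did not. Adjoining members met 430 genes, and 420 of them (97.7%) had one, as their position implies. The genes that members add to those with an IDR summit were therefore almost all met by separate members. Of the separate member summits, 54.9% still lay in or within 1 kb of a gene that had an IDR summit.

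The lists of salivary gland genes are small. None of the 12 glue genes, which encode the secreted glue proteins and their relatives, had a member summit within 1 kb (exact upper bound 26.5%), and none had an IDR summit. The strongest pooled region at Sgs5 and Sgs5bis had a pooled signal of 95.5 and rank 2207 in replicate 3, but rank 6663 in replicate 4, just outside the limit. At Sgs4 the ranks were 4600 and 12573, at Sgs1 they were 7513 and 7087, and at Sgs3 they were 9210 and 26913. The other 7 glue genes, Sgs7, Sgs8, Eig71Ee and ng1 to ng4, had no pooled region within 1 kb. None of 8 salivary enzyme genes was met by a member (upper bound 36.9%) and 1 by an IDR summit. With the rank limit of replicate 3 alone, 25% of glue genes were met.

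Of 14 transcription factor genes of the salivary gland, 1 was met by a member (7.14%), near the 6.58% of all genes, and 35.7% were met with the rank limit of replicate 4 alone. The 1 gene was trh, the bHLH-PAS gene of the trachea and salivary duct, by a separate member 364 bp upstream of a TSS (3L, 377485 to 377874). Its signal was 93.4 in the pooled list, 48.0 in replicate 3 and 47.9 in replicate 4, with ranks 3027 and 4960, and the nearest IDR summit was 29440 bp away. At 4 of the 14, fkh, CrebA, Xbp1 and da, the strongest region was an IDR peak. The one at fkh had rank 18191 in replicate 3 and 661 in replicate 4. At Scr, exd, hth and eyg it was a weaker region met in 1 replicate, with Scr at rank 23361 in replicate 3 and 2803 in replicate 4. At sage itself, sens, hkb, rib and toe no pooled region lay within 1 kb of a TSS.

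Of 23 ecdysone genes, 7 were met by members (30.4%, 13.2 to 52.9), 3 by separate members, and 14 (60.9%) had an IDR summit. Over all protein-coding genes, members met 6.58%, separate members met 3.77%, and 14.4% had an IDR summit. Only br, the Broad transcription factor gene, was met by a member without an IDR summit within 1 kb. Its separate member, 263 bp upstream of a TSS, had signals of 38.5 in replicate 3 (rank 4857) and 72.0 in replicate 4 (rank 2238). The nuclear receptor genes Hr3 and Hr39 had a separate member each at 631 bp and 294 bp upstream, with ranks 4094 and 3929 for Hr3 and 4678 and 6164 for Hr39. The members at tai, a coactivator gene of the ecdysone receptor, Eip74EF, an ETS factor gene, and Eip63E, a cyclin-dependent kinase gene, were adjoining, 201 to 203 bp from an IDR summit. The share of ecdysone genes met was 13.0% by separate members, 13.0% with a rank limit of the length of the IDR list and 4.35% where both replicate summits lay within 100 bp of the pooled one. None of 8 ecdysone synthesis genes was met.

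Insulin and TOR signalling was met by separate members alone. Of 20 genes, 3 were met (15.0%, 3.21 to 37.9), against 3.77% of all genes met by separate members, a share inside that interval. With a rank limit of the length of the IDR list, 0% of the list was met, against 1.96% of all genes. None of these 3 had an IDR summit within 1 kb, while 6 others had one. The 3 included Pi3K92E, the catalytic subunit of class I phosphoinositide 3-kinase, and scyl, an inhibitor of TOR signalling. Signals in replicate 3 and then replicate 4 were 44.7 and 44.5 at Pi3K92E, and 40.5 and 46.4 at scyl. Both summits lay in 5′ UTRs, 531 bp downstream of a TSS at Pi3K92E and 525 bp at scyl.

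Of 44 bHLH genes, 5 were met, all by separate members (11.4%, 3.79 to 24.6), and 9 of the 44 had an IDR summit. Separate members met 3.77% of all genes, just under that interval, and members of any kind met 6.58%, inside it. With a rank limit of the length of the IDR list, 0% of the list was met, against 1.96% of all genes. Besides trh they were emc, whose protein lacks the basic region and blocks other bHLH factors, gce, a juvenile hormone receptor gene, Mondo, a sugar-responsive factor gene, and Mnt, a repressor gene of the Max network. Of the 5, Mnt alone also had an IDR summit within 1 kb of a TSS, and the nearest IDR summit to its member was 611 bp away. Replicate ranks were 4339 and 4834 for emc, 3592 and 5584 for gce, 4734 and 5455 for Mondo, and 1774 and 3748 for Mnt.

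Members met 3 of 21 endocycle genes (14.3%), 4 of 21 death and autophagy genes (19.0%) and 3 of 33 secretory pathway genes (9.09%), against 6.58% of all genes. Among endocycle genes E2f2, a repressor E2F gene, had its stronger member 82 bp upstream of a TSS (pooled signal 95.1, ranks 3076 and 4382), and Cdk4 had one of pooled signal 53.1 (ranks 3214 and 5764), both separate and without an IDR summit. E2f1, the activator, had an adjoining one. Atg8a, a ubiquitin-like protein gene of the autophagosome, was met by separate members only (pooled signal 94.5, ranks 2610 and 4440). Diap1, a caspase inhibitor gene, had a separate member (ranks 3325 and 4141) and an IDR summit, and those at Dark and Atg18a were adjoining.

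Of the secretory pathway genes, Ero1L, an oxidase of disulfide formation in the endoplasmic reticulum, was met by separate members without an IDR summit (pooled signal 93.7, ranks 5409 and 2941). Hsc70-3 was met by a separate member as described, and Sec13, a COPII coat gene, by an adjoining one. Of 92 ribosomal protein genes 12 were met (13.0%, against 6.58% of all genes), 6 by separate members (6.52%, against 3.77%). An IDR summit was found at 30 (32.6%). RpS30, RpS10b and RpS5b had separate members and no IDR summit. The RpS30 summit lay 9 bp downstream of a TSS (signals 44.7 in replicate 3 and 58.5 in replicate 4).

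Members of the remaining lists split by kind. The share met was 15.4% of heat shock, 14.3% of chromatin, 15.4% of glycolysis and 16.7% of clock genes. All had intervals that include the 6.58% of all genes. Both heat shock genes met, Hsp26 and Hsc70-4, had adjoining members, and 9 of 13 heat shock genes had an IDR summit. Of 28 chromatin genes 4 were met, BEAF-32, Trl and ph-p by separate members 776 to 922 bp from an IDR summit and Su(z)2 by an adjoining one. Glycolysis and clock genes were met 2 each, at Eno and Pgk and at sgg and Pdp1, and of imaginal disc genes dac and salm had separate members without an IDR summit. Among 83 cytochrome P450 genes 4 were met (4.82%, under the share of all genes), and Cyp12e1, Cyp4p2 and Cyp9b2 had separate members and no IDR summit. Both cuticle genes met of 70 (2.86%, also under it), Cpr72Eb and Cpr73D, and 2 of the 3 Rab genes met of 30 (10%), Rab19 and Rab30, were of the same kind.

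The midgut, fat body, muscle, neuron and hemocyte lists had 0 or 1 gene met each. A separate member met Mur29B of 15 midgut genes. Adjoining members met apolpp of 13 fat body, Msp300 of 17 muscle and elav of 16 neuron genes, and none of 13 hemocyte genes was met. In the lists with 1 gene met the share was 5.88% to 7.69%, near that of all genes, and in the imaginal disc list it was 2 of 20 genes (10%). None of 179 chemoreceptor genes (upper bound 2.04%), of 51 odorant-binding genes or of 23 Osiris genes was met. These counts are read beside the 6.58% of all genes met by members and the 3.77% met by separate members, with no test of a list.

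**Figure D5:**
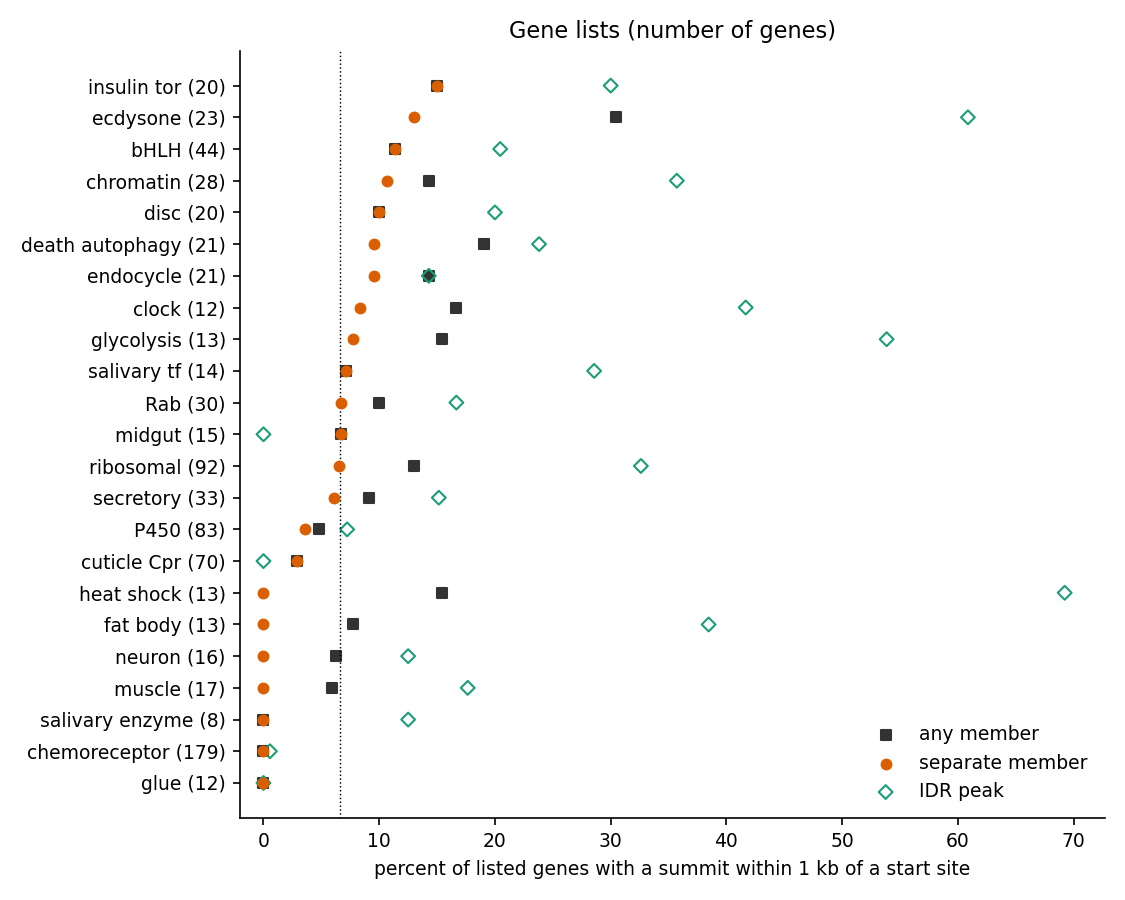
Each row is a gene list with its number of genes, and symbols give the percent of its genes with a summit within 1 kb of a start site for any member, separate members and IDR peaks. The dotted line is the 6.58% of all protein-coding genes met by a member. Ecdysone genes stand at 30.4% for any member and 13.0% for separate members, glue genes are at 0 for all 3, and heat shock genes have members of the adjoining kind alone.

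E-boxes were not more frequent at member summits than around them. A window of 101 bp around the summit held any E-box in 36.4% of members (34.1 to 38.7; 36.1% by replicate 3 and 36.4% by replicate 4 summits), against 39.3% of windows 500 bp to either side. The share was 35.4% of IDR peaks and 35.8% of all pooled regions. Motifs were searched on both strands. Summit windows of members held less G and C than their flanks (36.9% against 41.8%), and no motif share was adjusted for this. The part of base composition in the differences between summits and flanks, for any motif, was not tested. By single sequences, CAGCTG was in 4.93% of member windows and 3.64% of their flanks, against 4.80% and 4.85% for IDR peaks. CATATG was in 4.15% and 3.19% of members' windows and flanks, CACGTG in 1.20% and 0.902%, and CATGTG in 3.25% and 5.56%. Also lower at summits than in flanks were CACCTG (2.65% and 3.67%) and CAGATG (2.89% and 3.73%). The CACGTG share was 0.361% at the replicate 3 summits and 1.14% at those of replicate 4.

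The DRE was more frequent at summits than in flanks for separate members and for IDR peaks. It was in 24 of 1036 windows (2.32%, 1.49 to 3.43; 2.32% by replicate 3 and 2.22% by replicate 4 summits), 8 times the 0.290% of their flanks, which rests on 6 flank windows. It was in 1.49% of IDR windows (1.10 to 1.96), 4.67 times the share of their flanks, and the intervals overlapped. For weaker regions met in 1 replicate the share was 1.21%, 4.20 times that of flanks. It was in 4 of 627 adjoining windows (0.638%) and in 0.817% of all pooled regions. Almost all were in promoters, where 22 of 453 separate members held it (4.86%, 3.07 to 7.26), against 3.02% of IDR peaks in promoters (2.23 to 3.99), so these intervals overlapped. Outside promoters it was in 2 of 583 separate windows (0.343%). At the replicate summits adjoining members held it in 1.44%, by either replicate. The DRE contains the shorter BEAF core, CGATA, which was in 15.4% of separate windows and 11.7% of their flanks, and in 16.2% of IDR windows.

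GAGAG was in 15.0% of member windows and 13.4% of flanks, but replicates disagreed, with 11.9% at replicate 3 summits and 18.0% at replicate 4 summits. It was in 18.5% of adjoining and 12.9% of separate windows, against 15.2% of IDR and 11.6% of all pooled windows. The longer GAGAGAGA was in 1.92% of member windows. A forkhead core, TGTTTA, was in 13.5% of member windows and 10.3% of flanks, against 14.6% and 9.64% for IDR peaks and 13.3% and 10.1% for all pooled regions. A Senseless core, AAATCA, was in 12.3% and 11.3% of members' windows and flanks. The share of CACACACA was 2.47% and 3.34%. Matches of this length are descriptions of letters and name no bound factor.

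Member summits, like those of all pooled regions, held less G and C than their flanks. The mean was 36.9% in the summit window and 41.8% in the flanks. It was 34.7% and 42.9% for IDR peaks, and 35.7% and 41.6% for all pooled regions. Separate members had 35.7% and adjoining members 39.0% at the pooled summit. At the replicate summits this order was lost, with 34.2% for separate and 33.4% for adjoining members in replicate 3, and 36.5% and 36.2% in replicate 4. Base composition at adjoining members therefore moved with the choice between the member's own summit and the replicate summit on its neighbour.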

How the data were processed

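Per the text deposited with the files, the submitters made an IDR input list, holding peaks and background, from each replicate and from the pooled data, and kept the regions past their IDR threshold in a further list. Each region carries a deposited signal made by the authors from the ChIP and control alignments. Peak caller, aligner and scaling are not given in these sources. The dm3 lists were not used.

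Regions were ranked by deposited signal within a list and overlapped by at least 1 bp with Python 3.11.15 (numpy 2.4.6, pandas 2.3.3, scipy 1.17.1). Each summit received 1 class from Ensembl release 115 without transposable elements. The order of precedence was promoter (500 bp), then coding sequence, then UTR (5′ before 3′), then any remaining exon, then intron, else intergenic. Motifs (17) were searched on both strands of 101 bp windows and of windows 500 bp to either side. The code for positions was tested on simulated data. Intervals are 95% exact binomial intervals and cover counting over regions only. The 2 samples form 1 group, so no p-value is given.

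The members, the 27 gene lists and the motifs were chosen with earlier results of these data known. Named genes were the nearest genes of the 20 members of highest pooled signal and of the 10 of best mean replicate rank, every glue and salivary transcription factor gene, up to 6 genes of each other list, and the 10 genes with most members, with ties kept; 1 gene that the rule names is not reported here. Best-ranked separate members, the split into kinds and the limits of 180 to 240 bp were added after the values were seen. The alternatives tried were other rank limits, summits, promoter, gene and window sizes, and each replicate alone. Of 883 listed genes, 13 names needed an older symbol or had no match.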

Additional observations from a re-analysis of the deposited data

How the results depend on the processing

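Counts, shares, distances, motifs and gene lists over members were recomputed under the alternatives that touch them, while arm densities, genes with the most members, the DRE at separate members and comparisons at matched rank were not. Of 508 values 368 stayed within the 95% interval of the reported value, for G and C within the spread between replicates and for the number of members within 1.5 times. The order of separate and adjoining members in G and C turned round between pooled (35.7% and 39.0%) and replicate summits (34.2% and 33.4%, and 36.5% and 36.2%). Leaving out replicate 3 or replicate 4, so that 1 replicate set the rank limit, gave 4139 to 4402 members, promoter shares of 36.8% to 40.6%, intron shares of 40.8% to 41.5%, coding shares of 0.314% to 0.613%, median distances to an IDR summit of 3276 to 3985 bp, replicate summit gaps of 79 to 81 bp and 12.7% to 13.2% of genes met. With a rank limit of the length of the IDR list, 395 members remained, with 0% coding, 10.1% intergenic, 205 bp to an IDR summit, 49 bp between replicate summits, 40.0% G and C, 39.0% with an E-box and 1.96% of genes. With replicate summits within 100 bp of the pooled summit there were 484 members, with 39.9% in promoters, 16.1% intergenic, 76.4% upstream, 5797.5 bp to an IDR summit, a gap of 36 bp, 34.2% G and C and 2.14% of genes, which put G and C under the 34.7% of IDR peaks and intergenic sequence over their 12.8%. Replicate 3 summits gave 75.4% upstream and 33.9% G and C, and replicate 4 summits 73.9% upstream. Members over 1 kb from every IDR summit numbered 931, with 5912 bp, a gap of 90 bp and 3.32% of genes. A promoter of 200 bp gave 25.3% promoter, 0.842% coding, 46.1% intron and 19.1% intergenic. Start sites within 500 bp or 2 kb gave 5.02% or 8.74% of genes, and windows of 100 bp either side 61.6% with an E-box. Chosen after seeing the data, separate members alone (1036) gave 5151.5 bp, a gap of 92 bp and 3.77% of genes, and leading members alone (797) gave 72.0% upstream, 5245 bp, a gap of 80 bp, 35.1% G and C and 3.64% of genes. Settings that keep fewer regions or widen a window lower or raise counts by construction; the cause of the other shifts was not tested. Read depth is unknown. No paired analysis was possible because the samples form 1 group.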
